A study of Mus musculus with 4 samples.

Results

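The 1048 adenosines described here lie in exons outside annotated repeats and were read as guanosine in part of the RNA of lung endothelial cells (ECs). They were taken from the deposited table of candidate editing sites by 3 conditions within a library: 5 or more reads in all, 3 or more of them altered, and a rate (altered reads over all reads) of 0.05 to 0.95. A site was kept when it met them in at least 1 of the 4 libraries, which 24200 of all 1205261 listed sites did. The 1048 sites lie in 560 host genes, and 388 of these genes hold a single site. Since the sites and the groups below were chosen by their reads and rates, counts of these groups are descriptions with no test.

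The cells came from 2 male mice of 2 weeks of the strain C57/BL6 that carry a floxed ADAR1 gene and an inducible Cre, a model the labels call EC-specific. From each mouse, cells selected with beads for CD31 and ICAM-2 were grown as paired cultures, 1 treated with 4-hydroxytamoxifen (TM) to delete the gene and 1 left untreated (CON), so CON cells carry the same floxed gene and Cre. The mice are called EC1 and EC2, which gives 4 libraries and n = 2 per group, paired by mouse. Where 4 rates or depths follow each other without names, they are CON and TM of EC1 and then CON and TM of EC2. The promoter that drives the inducible Cre is not given in the sources used here.

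ADAR enzymes deaminate adenosine to inosine in double-stranded RNA, and inosine is read as guanosine by ribosomes and by sequencing. Mammals have a pair of active enzymes, ADAR1 and ADAR2 (gene Adarb1), which share some targets. Editing in coding exons is rare next to editing in repeats, but it can change a codon, and conserved recoding sites are known in Flna, glutamate receptor subunits and other proteins. A heterozygous DNA variant also gives a mixture of A and G reads, with a rate near 0.5 that does not depend on the enzyme.

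The stretches below show sites on which the results turn, with 10 bases of the spliced transcript on each side, 5′ to 3′ on the gene's strand from GENCODE vM21 (GRCm38). The capital marks the altered adenosine. Names give the codon change that the alteration makes in that transcript. The first group are coding sites in known editing targets, H60b holds the members with the smallest adjusted p among those named, and the last is a site near 0.5 in every library.
Blcap Y2C: gagatcatgtAttgcctccag
Blcap Q5R: tattgcctccAgtggctgctg
Flna Q2333R: tctagtcttcAggagtcaggg
Cdk13 Q103R: ggagggcggcAgaagcggcgc
Cog3 I635V: cattaaggaaAtttccctgga
Son R575G: ttcggcaactAgggcactgga
Gria3 R769G: ctcagcattaAgaacgcctgt
Copa I164V: cgtttgggatAtttctggtct
Igfbp7 R78G: cgcggccggcAgggggcactg
H60b T25A: cacactgtcaActggtacaga
H60b N187S: accacccagaAtacaaatacc
H60b Q201R: aataactcccAacataattct
P4hb Q360Q: tgatgagccaAgaagtgcctg
None of the first 9 sites has a G directly before the adenosine.

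The target gene Adar was looked at before the members, in a 15-exon transcript. The floxed stretch covers exons 12 to 15 by the study's numbering. Over exons 12 to 14 the median depth at listed sites was 145 reads in EC1 CON and 169 in EC2 CON, against 65.5 in EC2 TM and no listed site in EC1 TM, and over exon 15 it was 163.5 and 165 in CON, 47 in EC2 TM and none listed in EC1 TM. Over exons 1 to 11 it was 152.5 and 176 in CON and 664 and 1002 in TM. For exons 12 to 14 these medians rest on 3 sites in EC1 CON, 1 in EC2 CON and 2 in EC2 TM. For exon 15 they rest on 2, 1 and 1 sites, and for exons 1 to 11 on 14 to 52. These depths are not scaled to the library totals. Median exonic depth of Adarb1, chosen after its values were seen, was 218 in CON and 98 in TM of EC1, and 255 in CON and 150 in TM of EC2. Library totals were 131796753 to 207323870 over all rows of the gene count tables, and the members that passed in a library had a median depth of 51.5 to 101 reads. Of 10 endothelial markers 9 had a median exonic depth of at least 20 in every library, and of the 6 leukocyte and 4 epithelial markers 0 did. Ptprc, Cd3e, Itgam, Epcam, Sftpc and Cdh1 were listed in no library, whereas Cd68 was at 27.5 to 48 reads in 3 libraries, Lyz2 at 14 to 41 in 3, Cd79a at 2 in EC2 TM and Krt8 at 7 in EC2 TM. Of 6 fibroblast and smooth muscle markers 2 reached 20 in every library, and these were lower in TM: Col1a1 at 72, 24, 118 and 75 reads and Dcn at 339, 122.5, 447 and 215. Acta2 and Pdgfrb were lower or not listed in TM. Pdgfra was not listed in EC1 CON and at 7.5, 3 and 23 reads in the next libraries, and Myh11 was at 3, 7.5, 7 and 6. These depths are not scaled, and endothelial Pecam1 (2990, 1932, 3948 and 3508) and Kdr (1003, 863.5, 1256 and 1169) were lower in TM too. Cdh5 was lower in TM of EC1 and higher in TM of EC2. The part of fibroblasts and smooth muscle cells in the results below was not tested. In such bulk libraries, fewer cells of a type and less RNA per cell cannot be told apart.

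A total of 552 members passed in CON and 582 in TM of EC1, 641 in CON and 721 in TM of EC2, and 307 passed in all 4. Their median rate in the passing library was 0.453, 0.418, 0.467 and 0.45, and between 51.9% and 64% of passing rates lay from 0.3 to 0.7. Members were thus a mixture in which intermediate rates prevailed in both groups. Over members covered in both libraries of a mouse, the mean rate was 0.439 in CON and 0.415 in TM over 519 sites of EC1, and 0.454 in CON and 0.432 in TM over 634 sites of EC2. CON exceeded TM by 0.0231 ± 0.00199 (SD, n = 2 mice), with a two-sided exact permutation p = 0.5, which is the smallest that 2 mice allow. With all reads summed over sites the difference was 0.0842, and at a depth of at least 20 it was 0.0118. Summing weights each site by its depth, which differed between CON and TM in some host genes. Over all members with at least 5 reads in both libraries of a mouse, the median difference was 0 in EC1 (592 sites) and 0.00356 in EC2 (686 sites).

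**Figure D1:**
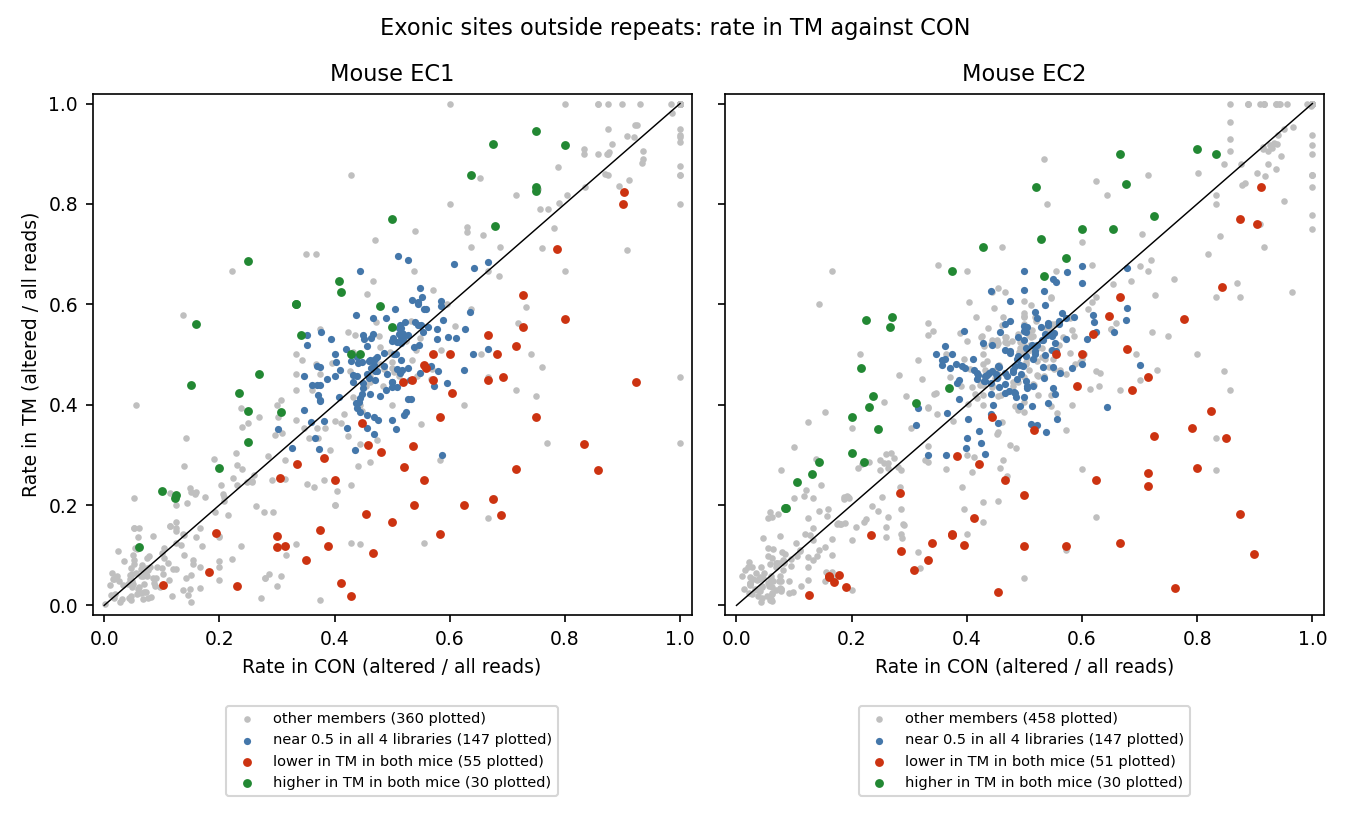
Rate in TM (y axis) against rate in CON (x axis) for members with at least 5 reads in both libraries of a mouse, EC1 left and EC2 right, with each point a site and the line marking equal rates. The 147 sites near 0.5 in all libraries lie around the line in both mice, and the lower and higher groups, drawn without sites that are also near 0.5, lie on their side of it by the rule that chose them (55 lower and 30 higher sites plotted for EC1, 51 and 30 for EC2).

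To ask which rates differed between CON and TM, the altered and reference reads of each site were fitted with edgeR's quasi-likelihood test with a term for the mouse, with Benjamini-Hochberg adjustment over all 7407 sites of the table that were listed in every library with at least 5 reads and passed in at least 1. Of the 475 members tested, 25 fell in TM, or 5.26%, and 5 rose, or 1.05%, at an adjusted p of 0.05. Over all tested sites 5.05% fell and 0.351% rose, so the share of falls among members was near that of the whole table. Outside repeats, 7.8% of 3′ UTR sites fell and 0.229% rose, and 0.534% of intronic sites fell and 0.485% rose. In SINEs, a class of repeats, 9.91% fell and 0.113% rose. The median log2 odds ratio (TM over CON) was -0.09 over tested members and -0.27 over all tested sites. All 25 members that fell had a lower rate in TM in both mice. The fit has 1 residual degree of freedom per site, and without the mouse term it called 0 members, with 38 at an unadjusted p under 0.05. The exact Cochran-Mantel-Haenszel test on reads called 27 members lower and 8 higher, and Fisher's exact test in each mouse called 6 lower and 1 higher in both.

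Of 30 genes on a list of known targets 10 held a member, 21 sites in all, and 13 of these sites were tested. All 13 had a negative log2 odds ratio, as had 55.8% of tested members and 61.3% of all tested sites, with a median of -0.86. In both mice 10 of the 13 had the lower rate in TM, and 5 in 4 genes passed the test (Blcap, Cdk13, Cog3 and Son). The other 8 tested sites did not pass. The list names known targets of ADAR enzymes and was written with earlier results of these data known, so it is not independent evidence of their direction.

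Blcap encodes a small protein studied as a suppressor of cancer cell growth, and both of its members lie at the start of its coding sequence in exon 2 of 2, on the minus strand of chromosome 2. At Y2C (position 157558149) the rate was 0.182 in CON and 0.0661 in TM of EC1, and 0.126 in CON and 0.0208 in TM of EC2. Both TM values were below both CON values, and the log2 odds ratio was -2.16 (adjusted p = 3.83e-08, edgeR's quasi-likelihood test). At Q5R (position 157558140) the rate was 0.112, 0.0507, 0.0625 and 0.0223 in the same order. Here too both TM values lay below both CON values, with a log2 odds ratio of -1.38 (adjusted p = 0.0132, edgeR). Depth at these sites was 179 to 628 reads, so the rates of the TM libraries rest on 13 to 22 altered reads. The level of Q5R was 0.0223 in EC2 TM, so altered reads were still seen there.

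Cdk13 encodes a cyclin-dependent kinase that acts on RNA polymerase II, and its 6 members all change a codon of exon 1 on chromosome 13. At Q103R (position 17804344) the rate was 0.682, 0.5, 0.85 and 0.333 in the order given above, at depths of 22, 36, 20 and 51 reads. TM was lower in both mice, and more so in EC2, with a log2 odds ratio of -2.19 (adjusted p = 0.00808, edgeR). The other 3 tested sites of the gene, T166A, K96R and Q35R, had log2 odds ratios of -1.47, -0.83 and -0.26 and did not pass. Q35R was 0.302 in CON and 0.351 in TM of EC1 but 0.431 and 0.301 in EC2, so the mice did not share a direction. Q128R and K117R were not listed in every library and could not be tested.

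Cog3, a subunit of the complex that tethers vesicles at the Golgi, had 3 members within 6 bases of each other in exon 17 of 23 on chromosome 14. At I635V (position 75719719) the rate was 0.901 in CON and 0.8 in TM of EC1, and 0.904 in CON and 0.759 in TM of EC2. Both TM values were below both CON values, with a log2 odds ratio of -1.44 (adjusted p = 0.0339, edgeR). The adjacent base, E634E, which does not change the codon's amino acid, had rates of 0.458, 0.32, 0.383 and 0.299 and did not pass. K633R was at or under 0.0725 in every library, with log2 odds ratio -0.86 and no call. Most reads at I635V were thus still altered in TM.

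Son, a protein of nuclear speckles that takes part in splicing, fell at R575G (chromosome 16, position 91656089, exon 3 of 12). Its rate was 0.194 and 0.144 in CON and TM of EC1 and 0.234 and 0.14 in EC2, with a log2 odds ratio of -0.72 (adjusted p = 0.0177, edgeR) at depths of 509 to 864 reads. Among members listed in all libraries it is the one just inside the rate difference of 0.05 used below, at 0.0504 in EC1. The member just outside was in Rif1, a chromatin protein of DNA replication and repair, with differences of 0.0492 in EC1 and 0.0867 in EC2. A neighbouring synonymous site of Son, L589L (position 91656133), had a rate of 0.0677 in TM of EC1, where CON did not list it, and of 0.155 in CON and 0.066 in TM of EC2.

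Flna, a protein that cross-links actin filaments, holds a recoding site with deep coverage that was lower in TM in EC1. At Q2333R (chromosome X, position 74226862, exon 42 of 47) the rate of EC1 was 0.604 in CON (95% Wilson interval 0.57 to 0.636) and 0.422 in TM (0.39 to 0.455), and CON of EC2 had 0.51 (0.481 to 0.54). The intervals of EC1 CON and EC1 TM did not overlap at depths of 845 and 890 reads. EC2 TM did not list the site, although its listed sites within 100 bases had a median depth of 1200 reads. The site was therefore compared in 1 mouse alone, where TM was lower by 0.181, and could not enter the fit. These intervals cover the counting error of the reads alone.

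The other recoding targets did not pass or could not be tested. Gria3, a subunit of AMPA-type glutamate receptors, had rates at R769G (chromosome X, position 41654252) of 0.76, 0.712, 0.73 and 0.469, lower in TM in both mice but not past the test (log2 odds ratio -1.08, adjusted p = 0.0745, edgeR). Copa, the alpha subunit of the coatomer, had 0.438, 0.393, 0.403 and 0.371 at I164V (chromosome 1, position 172092348), and all 4 values lie in the range of sites near 0.5. Both TM values of Copa I164V were below both CON values, by 0.0453 in EC1 and 0.0312 in EC2 within the mouse. The site did not pass the test (log2 odds ratio -0.23, adjusted p = 0.616, edgeR). Its synonymous site Q1011Q was 0.439 in CON and 0.495 in TM of EC1 but 0.483 and 0.423 in EC2. Both Copa sites lie in a stretch of chromosome 1 dense in sites near 0.5, with 15 such sites of other genes within 500 kb. At R78G of Igfbp7, a secreted protein of vessel walls, the rate was 0.781 in CON and 0.753 in TM of EC1 and 0.701 in TM of EC2, whose CON library did not list it. K95R of the same gene was listed in EC1 TM alone, at 0.666 of 823 reads. At Q619R of Tmem63b, a mechanosensitive ion channel, the rate was 0.0909, 0.0769 and 0.0734 in EC1 CON, EC1 TM and EC2 TM, values whose intervals overlap.

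**Figure D2:**
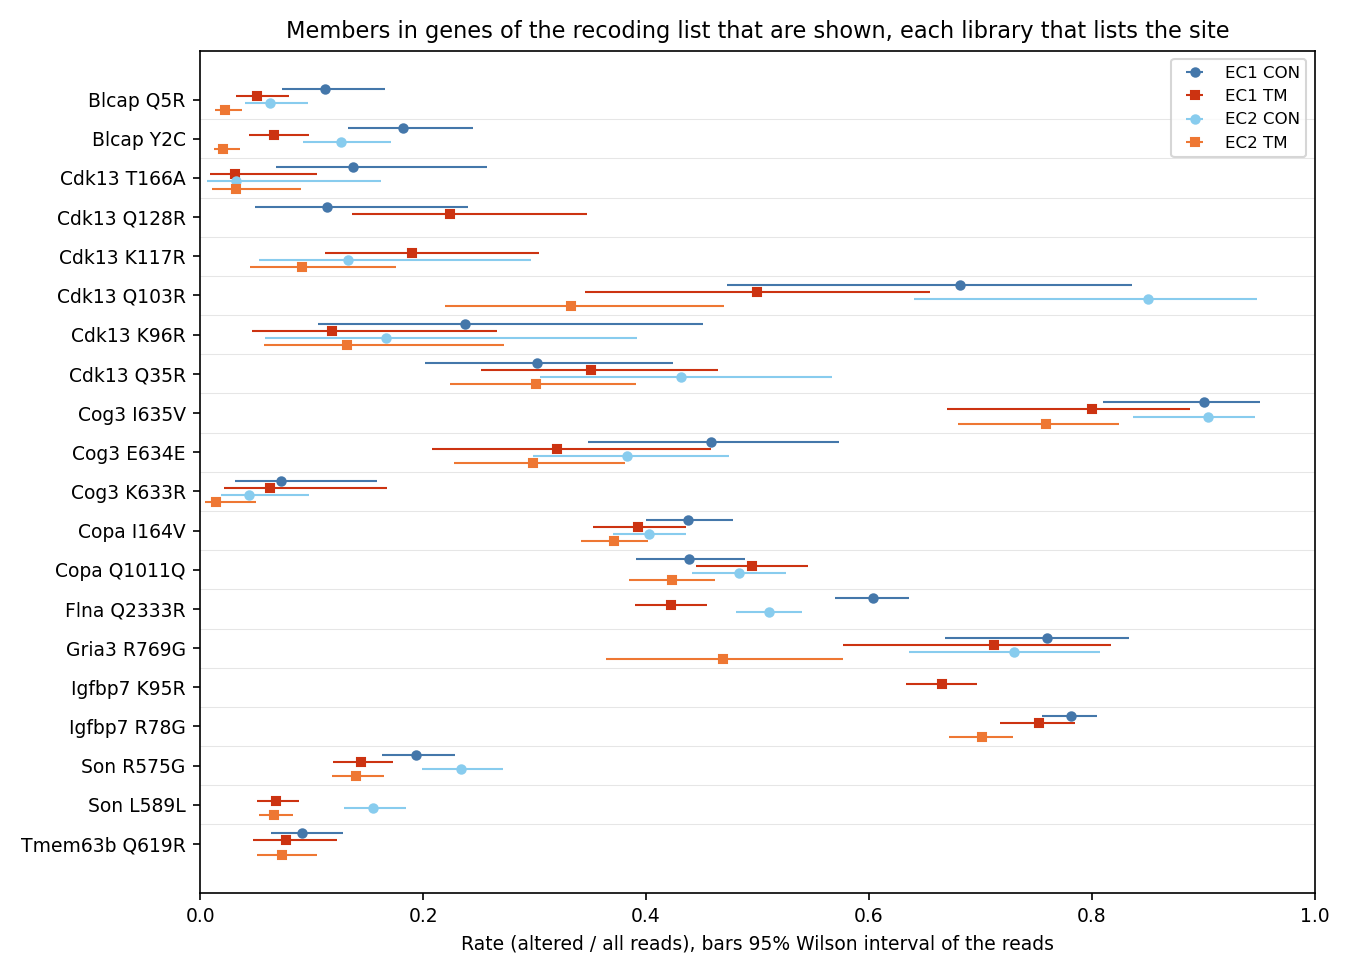
Rate (x axis, altered over all reads) of 20 of the 21 members in genes of the recoding list, 1 row per site, with circles for CON, squares for TM and bars for the 95% Wilson interval of the reads. A library that does not list a site has no point. Both Blcap sites lie lower in TM in both mice, from 0.182 to 0.0661 and from 0.126 to 0.0208 at Y2C. Copa I164V lies from 0.371 to 0.438 in all 4 libraries, also lower in TM in both mice but not called.

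H60b, which encodes a ligand of the activating receptor NKG2D of natural killer cells, is outside that list, and 3 of its 4 members fell. At N187S (chromosome 10, position 22287087) the rate was 0.69 in CON and 0.179 in TM of EC1, and 0.762 in CON and 0.0345 in TM of EC2, with a log2 odds ratio of -4.9 (adjusted p = 1.58e-16, edgeR). At Q201R (position 22287129) it was 0.675, 0.212, 0.898 and 0.102, and at T25A (position 22283560) 0.429, 0.0192, 0.455 and 0.026. All 3 sites had both TM rates below both CON rates by at least 0.4 and were called in each mouse by Fisher's exact test. The fourth member of the gene, G62G (position 22285800), went the other way, from 0.16 to 0.56 in EC1 and from 0.224 to 0.568 in EC2, with a log2 odds ratio of 2.37 (adjusted p = 3.5e-05, edgeR). Depth here was 25 to 87 reads, and exonic depth of H60b, scaled to the library total, had a log2 ratio of TM to CON of 0.10 for EC1 and -0.06 for EC2. H60b has close relatives in the genome, and reads from a relative cannot be told apart from altered reads of H60b in this table.

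The p200 family of interferon-inducible DNA sensors on chromosome 1 gave 4 of the falls, 2 in Ifi205 and 2 in Mndal. At Ifi205 K121E (position 174027231) the rate was 0.833 in CON and 0.322 in TM of EC1, and 0.8 in CON and 0.275 in TM of EC2, at depths of 6, 311, 10 and 550 reads. At Ifi205 T125A (position 174027219) it was 1, 0.324, 0.833 and 0.27, at depths of 8, 318, 6 and 570 reads, so every EC1 CON read was altered. At Mndal S284S (position 173865426) it was 0.455, 0.182, 0.5 and 0.22, at depths of 22, 616, 26 and 1126 reads. In both genes the rate was lower where depth was higher. Scaled exonic depth was higher in TM than in CON by a log2 of 5.74 and 5.61 for Ifi205 and 4.68 and 5.23 for Mndal in EC1 and EC2. The genes of this family are similar to each other, and how far reads of one were placed on another was not tested. Relatives that were not called showed both patterns: AI607873 held 20 members, of which 4 were lower and 3 higher in TM in both mice by the rate rule.

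Serpina3f, a serine protease inhibitor of a gene cluster on chromosome 12, gave 3 of the falls. Its deepest site, N119D (position 104217235), had a rate of 0.907 in CON and 0.708 in TM of EC1, and 0.95 in CON and 0.805 in TM of EC2 (log2 odds ratio -2.11, adjusted p = 4.4e-06, edgeR). Both TM values were below both CON values, by less than at H60b. Scaled exonic depth of Serpina3f had a log2 ratio of TM to CON of 2.10 for EC1 and 0.00 for EC2. Another of its falls, N235D (position 104218301), rested on 8 reads in each CON library. Its neighbour Serpina3g rose at M219V (position 104241234), where the rate was 0.412 and 0.625 in EC1 and 0.271 and 0.575 in EC2 (log2 odds ratio 1.56, adjusted p = 0.0316, edgeR). The cluster holds near copies, so the placement of reads between them is uncertain.

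The remaining 10 falls lie in 9 genes: 2 in the predicted gene Gm6548 and 1 each in Gm15645, Gpr137b, A730008H23Rik, H2-Q4, Gm10471, Rnd3, Sp140 and Rsph3a. Rnd3, Sp140, Rsph3a, Gm10471, the second site of Gm6548, and above Serpina3f K271R fall outside the naming rule and were chosen after their values were seen, as were Sfi1 and the second site of Myl12b below. Gm6548, on chromosome 17, was 0.315 in CON and 0.119 in TM of EC1, and 0.339 in CON and 0.125 in TM of EC2 at position 78852088, and both TM rates lay below both CON rates (log2 odds ratio -1.81, adjusted p = 4.02e-11, edgeR). That site matched no exon of GENCODE on its strand. Scaled exonic depth of Gm6548 was higher in TM by a log2 of 1.67 in EC1 and 1.36 in EC2. Gpr137b, a lysosomal membrane protein, was 0.0639, 0.059, 0.111 and 0.0392 at Y355C (chromosome 13, position 13359406), with TM lower by 0.00492 in EC1 and 0.0722 in EC2. Rnd3 was 0.786, 0.71, 0.843 and 0.634 at E120E (chromosome 2, position 51134206). At its depths of 64, 1569, 81 and 3497 reads, H2-Q4, an MHC class I gene and the only called member on the list of 80 interferon-stimulated genes, was 0.0469, 0.0108, 0.0617 and 0.00886 at N126S (chromosome 17, position 35380132), with a log2 odds ratio of -2.61 (adjusted p = 0.0164, edgeR). Its scaled depth was higher in TM by a log2 of 4.18 and 4.68.

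Besides H60b G62G and Serpina3g M219V, the members that rose were 2 sites of Myl12b and 1 of Sfi1. Myl12b, a regulatory light chain of myosin, was 0.0569 in CON and 0.113 in TM of EC1, and 0.0343 in CON and 0.0638 in TM of EC2 at K5K (chromosome 17, position 70977217). Its second site, L94L (position 70975523), was 0.0531, 0.115, 0.0554 and 0.0978, so at both sites each TM rate exceeded the CON rate of its own mouse. At Sfi1 Q444R (chromosome 11, position 3153442), in a gene of centrosome biology, the rate was 0.268, 0.462, 0.216 and 0.472. Scaled depth of Myl12b was lower in TM by a log2 of -1.57 in EC1 and -1.12 in EC2.

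**Figure D3:**
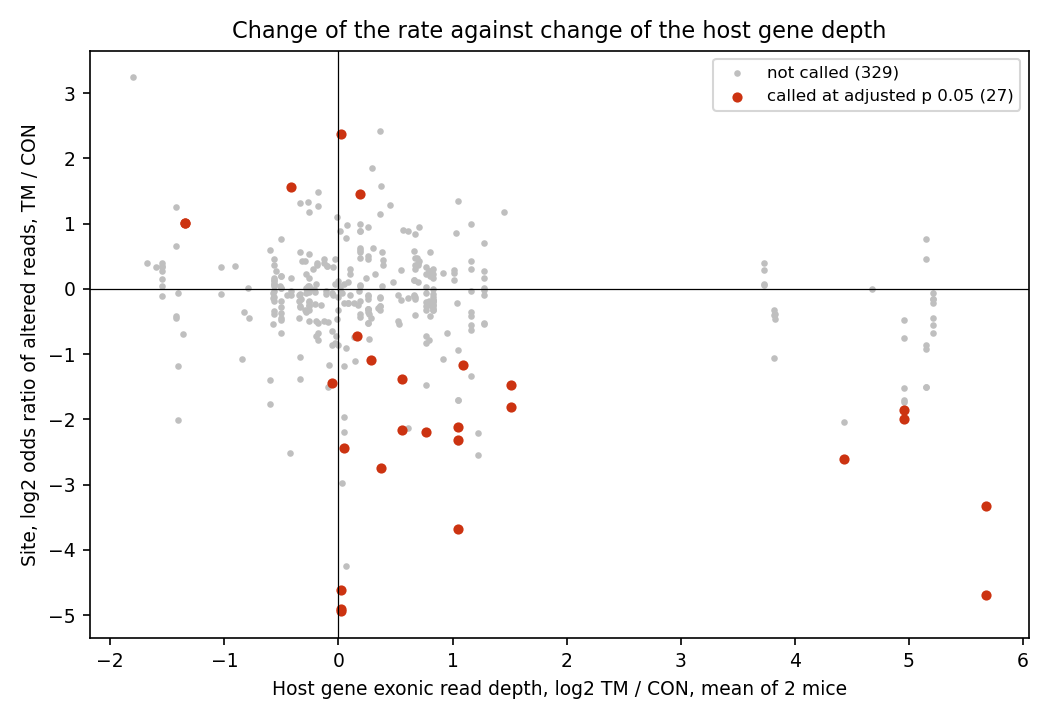
Log2 odds ratio of altered reads, TM over CON (y axis), against the log2 change of the host gene's scaled exonic depth, mean of both mice (x axis), for the 356 tested members whose host depth was known, with the 27 called sites in red and the 329 others in grey. The 4 lowest values, from -4.61 to -4.94, are 3 sites of H60b at a depth change near 0 and Ifi205 T125A at a depth change above 5.

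Of the 25 members that fell, 11 lie in genes whose scaled exonic depth changed within 2-fold in both mice, 11 in genes where it changed more in at least 1 mouse, and for 3 it was not known. Of all members with a known host depth change, 68.4% were within 2-fold. The first 11 include both Blcap sites, Cdk13 Q103R, Cog3 I635V, Son R575G and the 3 sites of H60b. Over host genes with a known depth change its median log2 was 0.10 in EC1 and 0.04 in EC2. The part of these depth changes in the lower rates was not tested.

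By the rate rule of the study, in which the CON rate is at most 0.95, rests on 5 or more reads with 3 or more altered, and exceeds TM by 0.05 or more, 79 members were lower in TM in both mice (231 in EC1, 252 in EC2). This is 7.54% of members, against 7.33% of all 24200 passing sites. The mirrored rule gave 67 members higher in TM in both mice, 6.39% against 3.89% of all passing sites. A further 66, or 6.3%, went opposite ways in the mice, against 6.49%. Lower members thus outnumbered higher ones 79 to 67, and in the table as a whole 1773 sites were lower and 942 higher. The median rate of the lower group was 0.538, 0.319, 0.502 and 0.306. Among the 475 members listed in all libraries with at least 5 reads, 54 were lower (11.4%, against 16.3% of all such sites) and 38 higher (8%, against 6.66%). Within host genes whose depth changed within 2-fold, a limit set after seeing the data, 30 were lower and 24 higher.

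A site that is missing from a library carries a deposited rate of 0, and this entered the rule. Of the 79 lower members, 9 were not listed in EC1 TM and 17 not in EC2 TM, 5 of them in neither. Among members near 0.5 at 20 or more reads in the 3 other libraries, EC2 TM did not list 12 of 147 (8.16%), EC1 TM 3 of 145 (2.07%), and EC1 CON and EC2 CON 1 each. Of those 12, 8 had listed sites within 100 bases with a median depth of at least 10. A rate of 0 at such a site is thus not a measured 0, and the cause was not tested. Named members of the lower group that rest on such a gap lie in Flna, Brf1, Mid1, Tor1aip2, Mnda, AI607873, Sp140 and Serpina3g. Brf1, a subunit of an RNA polymerase III initiation factor, was 0.559 in CON and 0.473 in TM of EC1 and 0.538 in CON of EC2 at V255V, with no listing in TM of EC2. Mid1, a ubiquitin ligase on the X chromosome, was 0.535, 0.449 and 0.358 at Q467Q, and Tor1aip2, a partner of torsins in the endoplasmic reticulum, 0.519, 0.445 and 0.422 at N205S, both with no listing in EC2 TM. At Mnda K97R (position 173906304 of chromosome 1), the rate was 0.396 in EC1 CON and 0.364 in EC2 CON, and neither TM library listed it, with a median depth nearby of 1800 and 3360 reads.

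With the group set in 1 mouse and read in the other, the direction was kept at 59.6% to 62.6% of the sites. Of members lower in EC1 with reads in both EC2 libraries, 97 of 155 (62.6%) were lower in TM in EC2, against 51.9% of all 686 members so covered, with a median difference of 0.0339. Of members lower in EC2, 96 of 161 (59.6%) were lower in EC1, against 49.2% of 592. Where the difference in the choosing mouse was at least 0.20, these shares were 70% of 50 and 73.8% of 61. With at least 20 reads in the libraries of the other mouse they were 55.9% and 53.6%, against 50.5% and 48.1% of all members. Members higher in TM in EC1 were lower in TM in EC2 in 44.3% of cases, and those higher in EC2 were lower in EC1 in 38.5%. Sites of 1 gene share reads and are not independent, so these shares have no test.

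Sites near 0.5, which heterozygous variants would give, were a larger part of exonic members than of the table. Members with a rate of 0.3 to 0.7 at 10 or more reads in all 4 libraries numbered 147, or 14%, against 3.37% of all passing sites. These shares also depend on coverage, since 475 of 1048 members but 7407 of 24200 passing sites had 5 or more reads in all 4 libraries. Copa I164V, Copa Q1011Q and Cdk13 Q35R of the recoding list are among the 147 sites. The median rate of the 147 sites was 0.489, 0.483, 0.494 and 0.48 at a median depth of 91 to 167 reads. The median size of the CON to TM difference was 0.0504 in EC1 and 0.05 in EC2, so 11 of them were also in the lower group and 11 in the higher group. All 147 were tested and edgeR called none, with 8 at an unadjusted p under 0.05, while the exact Cochran-Mantel-Haenszel test called 2. Their log2 odds ratios ran from -1.0 to 0.89 with a median of -0.03. The rule that chose these sites holds all 4 rates within 0.3 to 0.7 and so limits such differences. The lack of calls is therefore no separate evidence that their rates were stable.

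Of the 6 deepest, 3 had a range of at most 0.043. P4hb, a protein disulfide isomerase of the endoplasmic reticulum, was 0.46 in CON and 0.453 in TM of EC1, and 0.455 in CON and 0.475 in TM of EC2 at Q360Q (chromosome 11, position 120562758), at 1669 to 3235 reads. F11r, the junctional adhesion molecule JAM-A, was 0.457, 0.462, 0.467 and 0.463 at G217G, and Klc1, a kinesin light chain, 0.487, 0.478, 0.521 and 0.518 at E488E. Among these 3, both mice shared an order of CON and TM at Klc1 alone. Inf2, an actin-assembling formin, spread from 0.466 to 0.565 at E316E, and Col5a2, a chain of type V collagen, from 0.411 to 0.528 at G679G. Neither was called by edgeR. Col5a2 was lower in TM by 0.117 in EC1 and 0.0461 in EC2, and the exact Cochran-Mantel-Haenszel test called it (adjusted p = 0.0104). Inf2 was higher in TM in both mice and was not called by that test (adjusted p = 0.073). Copa I164V, described above, completes the 6 deepest sites.

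These sites lay on 13 chromosomes. Chromosome 1 held 62 of the 147 and 229 of all 1048 members, and chromosome 12 held 36 and 105. Joined over gaps of up to 2 Mb, 108 lay in 8 stretches of 5 or more sites. The largest ran from 170149369 to 173906239 of chromosome 1, with 27 sites in 16 genes from Atf6 and Copa to the p200 family, and the next from 155861741 to 156642255, with 22 sites in Abl2, Cep350, Soat1 and Tor1aip2. On chromosome 12, 22 sites in 13 genes lay from 111678709 to 113136424, among them Brf1, Inf2 and Klc1. Of the 147, 137 (93.2%) had a further site near 0.5 of another gene within 500 kb, against 40.7% of all members, 64.6% of the lower group and 36% of members that fell by edgeR. A further 123 members, or 11.7% against 2.88% of all passing sites, were near 0.5 in both libraries of 1 mouse and not listed in the other, 102 in EC2 and 21 in EC1. Of the EC2 sites 58 lay on chromosome 14 and 20 on chromosome 1, and of the EC1 sites 10 each on chromosomes 10 and 7. By the rule that chose them, the sets of the mice cannot share a site, so a difference in place is partly built in.

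**Figure D4:**
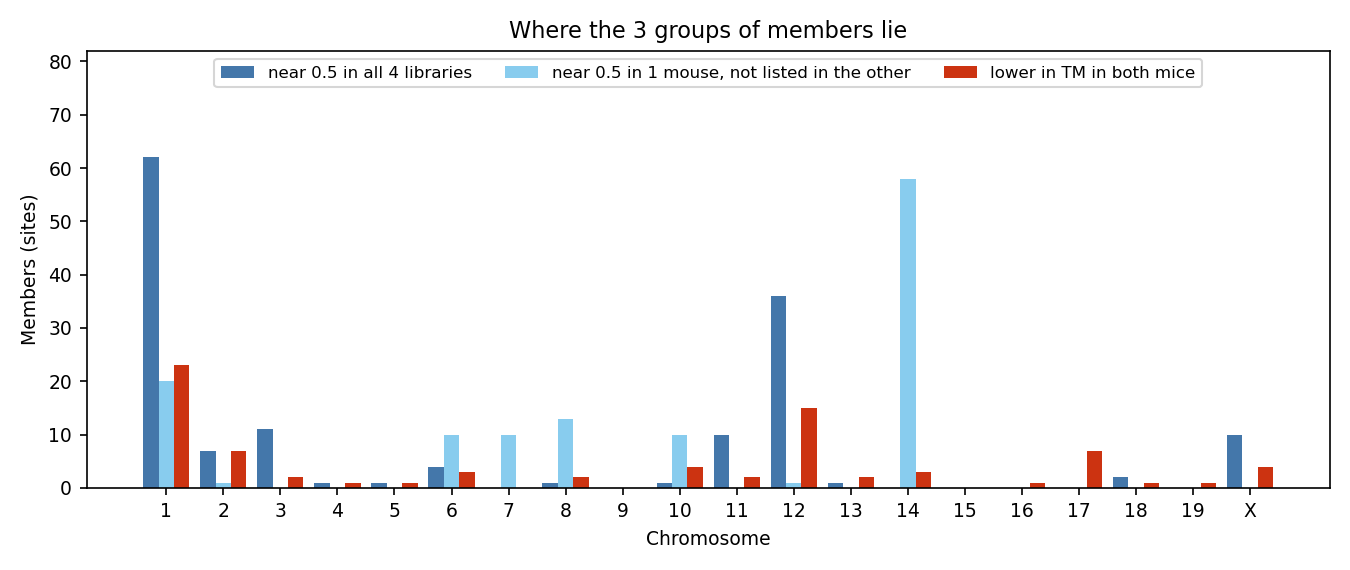
Number of members (y axis) by chromosome (x axis) that were near 0.5 in all 4 libraries (dark blue), near 0.5 in 1 mouse and not listed in the other (light blue), or lower in TM in both mice (red). Chromosome 1 held 62 and chromosome 12 held 36 of the first group, and chromosome 14 held 58 of the second.

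The bases beside the adenosine were read from the 1016 members that match an exon of GENCODE on the same strand, all of which have an A there. A G stood directly before 5 of 76 lower members (6.58%), before 25.4% of higher members, 21.1% of members near 0.5 in all libraries, 11.8% of those near 0.5 in 1 mouse and 18.8% of all members. Among the 143038 adenosines of the same exons it was 26.3%. An A stood before 47.4% of the lower group and 30.4% of all members. ADAR enzymes are known to disfavour a G at this place. A G directly after the adenosine, which they favour, was found in 23.7% of the lower group, 32.9% of all members and 30.2% of the exons' adenosines, so this side did not show a higher share. Among members that fell by edgeR, 1 of 24 (4.17%) had a G before the site.

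**Figure D5:**
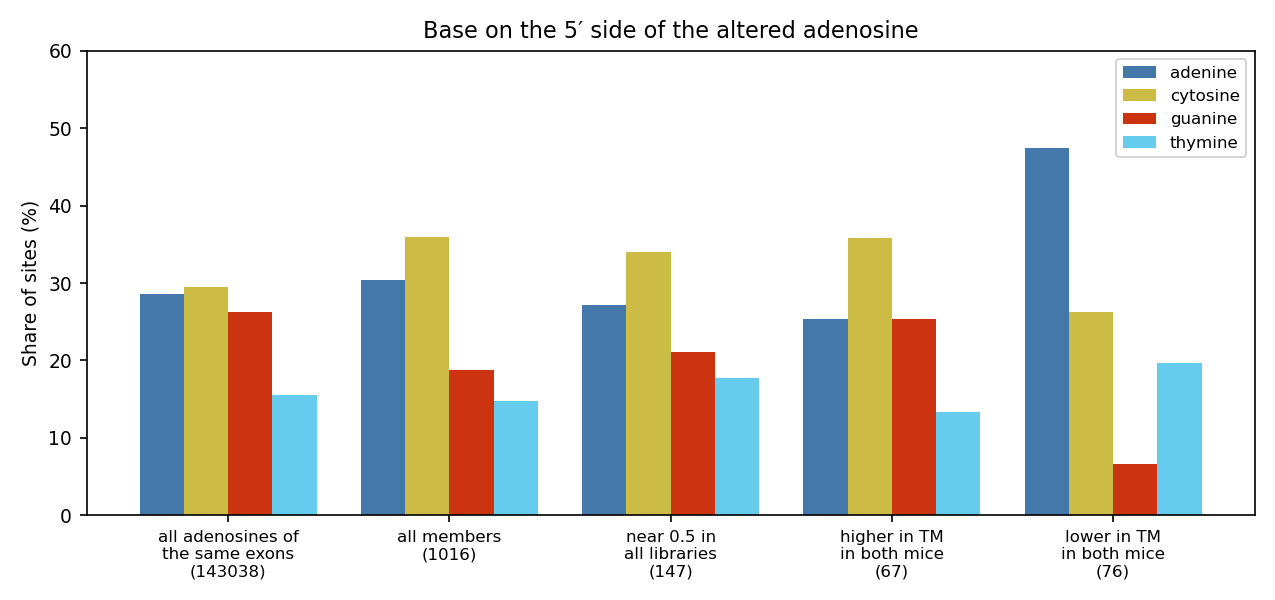
Share of sites (y axis, percent) with each base directly before the altered adenosine, for all adenosines of the exons that hold a member and for 4 sets of members, with the number of sites under each name. Guanine stands before 6.58% of the lower group, against 18.8% of all members and 26.3% of the exons' adenosines.

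Of 876 members in coding sequence, 53.4% change an amino acid. The share was 65.6% in the lower group, 65% in the higher group, 81.8% of the 22 coding sites that fell by edgeR, 44.4% of sites near 0.5 in 1 mouse, and 34.5% of the 139 coding sites near 0.5 in all libraries. Turning any coding adenosine of these exons to G would change the amino acid in 74.4% of 74883 cases. In the minimum free energy fold of the spliced transcript up to 100 bases on either side of the site, 27.6% of lower members lay in a base pair, against 37.4% of all members and 38.8% of members near 0.5. The median energy was -25.2 kcal/mol per 100 bases for the lower group and -27.3 for all members. These windows hold no introns, and pairing with an intron was not tested.

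Of the 79 lower members, 16 lie in 11 genes with a host depth change within 2-fold and no site near 0.5 of another gene within 500 kb, a combination set after seeing the data. Among them are Blcap Y2C, Cdk13 Q103R, 2 Cog3 sites, Flna, Son R575G, 3 sites of H60b, 3 of Rsph3a and 1 each in Rsph3b, Cep192 and Cstf2t. Of the 16, 12 were listed in all libraries with at least 5 reads, 14 change an amino acid and none had a G directly before the site. By edgeR 8 fell, but on the same reads that chose the group, so this is no separate support. The same combination left 9 members of the higher group. Rsph3a and Rsph3b, duplicated genes of the ciliary radial spoke, had at most 53 reads at the sites that were lower in Rsph3a.

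Of 80 genes on a list of interferon-stimulated genes, which does not hold the p200 family, 6 held 12 members (Gbp2, Gbp3, Gbp7, H2-Q4, H2-Q6 and Ifit3b), and over the 4 with a known depth change the median scaled exonic depth was higher in TM by a log2 of 4.04 in EC1 and 4.23 in EC2. By the rate rule 1 was lower and 1 higher in both mice. The lower one, in H2-Q4 but not its called site N126S, was not listed or had under 5 reads in a TM library. The higher one, N51D of the MHC class I gene H2-Q6 (chromosome 17, position 35425194), was listed in TM alone, at 0.389 of 208 reads in EC1 and 0.335 of 484 reads in EC2. Gbp2b, a guanylate-binding protein outside the list, likewise had 5 members higher in both mice, with N312S at 0.18 in EC1 TM and 0.293 in EC2 TM and no listing in CON. For both sites no listed position within 100 bases gave a depth in CON, so a rate in CON was not measured and no fold can be given. Gm10471, a predicted gene, was 0.25 and 0.686 in EC1 and 0.533 and 0.657 in EC2 at K18E and was not called.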

How the data were processed

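RNA of ECs from 2 i-KO mice was analysed, with 1 CON and 1 TM library per mouse. Per the labels and the methods of the study, the authors used Trimmomatic 0.38 for trimming and STAR 2.6.1a for alignment to mm10, called variants per library with BCFtools mpileup (version not given in the sources used here), and kept changes that read as A to G on the strand of the gene. They deposited the counts of reference and altered reads per site, and the rate as a fraction of altered reads, with 0 for a site that a library lacks. The authors deposited gene counts made with HTSeq 0.11.2, of which 0.823% to 0.858% of each total lay on genes. These gave library totals only.

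The columns of the site table were given to libraries through a supplementary table of the study, with 1998 of 1998 sites equal. The members and lists were chosen with earlier results of these data known. Reads were fitted in edgeR 4.0.16 (R 4.3.3) with terms for library, mouse and TM. The fit was also run on simulated reads drawn without a difference between mice, so that run does not cover the pairing of these data. CON and TM came from the same mouse, and their deviations from the group means correlated with r = 0.903 over 343 members at 20 or more reads. The adjusted p is Benjamini-Hochberg over all sites tested. Host depth is the median depth at a gene's listed exonic sites over the library total. Codons and bases came from GENCODE vM21, and folds from RNAfold 2.7.2 on spliced transcripts, since a genome sequence was not used here. Work on sites used Python 3.11.15, pandas 2.3.3 and scipy 1.17.1. PCR reads are not independent molecules, so intervals (95% Wilson) cover counting error only. Both libraries of a group come from separate mice.

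Sites were named by rule: the 15 lower members with the largest mean fall at 20 or more reads in both CON libraries, all members of the recoding list, the 5 higher members with the largest rise, the 6 deepest near 0.5, and up to 20 edgeR calls by p. Alternatives were other limits on depth, altered reads, rate and difference, listing in all libraries, a local depth in place of missing listings, equal library sizes, no mouse term, other tests on reads, and each library or mouse left out. 1 of the sites that the rule names is not reported here.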

Additional observations from a re-analysis of the deposited data

Results flagged for a closer look

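At Q1011Q of Copa (chromosome 1, position 172119259), the rate in CON minus that in TM was -0.0554 in EC1 and 0.0601 in EC2, so the mice moved in opposite directions at 386 to 622 reads. The difference between the mice was not tested.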

How the results depend on the processing

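Of 80 alternatives to the counts and means, 40 moved the value by less than 1.5 times or less than the spread between mice. The 79 lower members became 43 at a depth of at least 20, 52 and 23 at a rate difference of 0.10 and 0.20, and 231 to 252 with 1 mouse left out. The 67 higher members became 38 and 16 at a difference of 0.10 and 0.20, 38 where all libraries list the site, 41 with a local depth in place of a missing listing, and 227 to 271 with 1 mouse left out. In host genes with a depth change within 2-fold, an alternative chosen after seeing the data, there were 30 lower and 24 higher members, and 21 of each where all libraries also list them. The 147 members near 0.5 became 71 at rates of 0.4 to 0.6 and 224 to 316 with 1 mouse left out. The mean difference of 0.0231 became 0.0149 with a rate of 0 for missing sites, 0.0842 for summed reads and 0.0118 at a depth of 20. The share that kept its direction in the other mouse became 70% and 73.8% at a difference of 0.20. It became 55.9% and 53.6% with at least 20 reads in the libraries of that other mouse. The share of lower members with a G before the site became 0% at a depth of 20 in both CON libraries.

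CON and TM of the same mouse are paired, and the edgeR calls rest on that pairing: without the replicate block 0 members were called in either direction, with 38 at an unadjusted p under 0.05. With any 1 library left out, which leaves no block and a lone sample assumed to vary like the others, 0 were called lower and 0 higher, with 19 to 29 at an unadjusted p under 0.05. With missing sites set to 0 altered reads at the local depth, edgeR called 0 lower and 0 higher, with 45 at an unadjusted p under 0.05. The exact Cochran-Mantel-Haenszel test was run only without such filling, on sites listed in all libraries, and called 27 lower and 8 higher. Fisher's exact test in each mouse called 6 lower and 1 higher, and with no depth minimum edgeR called 2 higher. The 22 named sites that were called kept the call in 61 of 195 alternatives and lost it in 134. Of these, 2 losses came with no depth minimum and the others without the block, with 1 library left out or with missing sites filled in. The 14 named sites that were not called gained no call, but with 1 library left out the log2 odds ratio changed sign at Cdk13 Q35R (0.16), Cog3 K633R (0.21), Copa Q1011Q (0.11 and 0.19), Klc1 E488E (0.07 and 0.08) and P4hb Q360Q (-0.03). The cause was not tested.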
